A study of Mus musculus with 3 samples.

Results

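The insulin-like growth factor (IGF) system was followed through 10 genes: the ligand gene Igf1, the receptor genes Igf1r and Insr, the binding protein genes Igfbp2 to Igfbp7, and Pappa, which encodes a protease of binding proteins. They were taken by name, through array probes whose transcript accession belongs to one of them. This gave 15 probes for all 10 genes, out of 41174 probes and 16535 named genes on the array. The cells were untreated primary fibroblasts, the connective tissue cells that grow out of dissociated embryos, taken from mouse embryos at E12.5 and kept in DMEM with 10% serum. Cultures labelled SA1-null, which by their label lack the cohesin subunit SA1, were set against cultures labelled wild type. Each of 3 Agilent 2-colour arrays held 1 SA1-null sample in Cy3 and 1 wild type sample in Cy5. The dyes ran the same way on every array, which leaves dye and genotype impossible to separate. Per the labels these are biological replicates, with no word on how the null allele was made or how many embryos a culture came from.

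IGF-I is a secreted growth factor that acts through the IGF-I receptor, a tyrosine kinase closely related to the insulin receptor. In tissue fluid most of it is held by binding proteins, which keep it from the receptor, store it in the matrix or carry it to cells. PAPP-A, the product of Pappa, cuts some of these binding proteins and so frees the ligand near its receptor. Fibroblasts are known to secrete several members of this system, and macrophages are a known source of IGF-I.

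The channel labels were at odds with the targeted gene. Stag1, which encodes SA1, had log2 ratios of 3.34, 3.74 and 3.47 on replicates 1, 2 and 3, with SA1-null by label on top and wild type by label below (limma adjusted p = 0.0274). Its signal was thus higher in the channel that should lack it, on 3 of 3 arrays. The other, dimmer Stag1 probes averaged 3.53, 2.17 and 0.59, the last with wild type well above background on 0 of 3 arrays. Stag2, the gene of the related subunit SA2, lay at -0.18, 0.03 and -0.18 (limma adjusted p = 0.856). Below, SA1-null and wild type mean the channels labelled so, and every sign turns over if the labels are exchanged. Of 14 fibroblast markers, 12 were well above background on every array in SA1-null, and likewise 12 in wild type. Between 60.6% and 65.8% of probes were well above background in SA1-null channels, against 61.8% to 67% in wild type channels. Replicate 1 lay on slide 1 and replicates 2 and 3 on slide 2.

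None of the members passed the test over all genes. Of 9 members tested, 0 passed at an adjusted p of 0.05 in limma, where 0.314% of the 18488 genes tested did (58 genes). By direction, 0.303% of all genes were lower and 0.0108% higher in SA1-null. At an unadjusted p under 0.05 there were 3, Igf1, Igfbp6 and Igfbp3, against 7.49% of all genes. The median log2 ratio of the 9 was -0.03 and that of all genes -0.02. Insr was left out of the test because its probe was too dim. In the 9 members the 3 arrays differed from each other more than in most genes: the median SD over arrays was 0.70, against 0.32 for all genes. The SD of Igfbp2, Igfbp4, Igfbp5 and Igfbp7 lay above the 90th percentile, while that of Igfbp3 lay at percentile 0.368 and that of Igfbp6 at percentile 5.48.

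**Figure D1:**
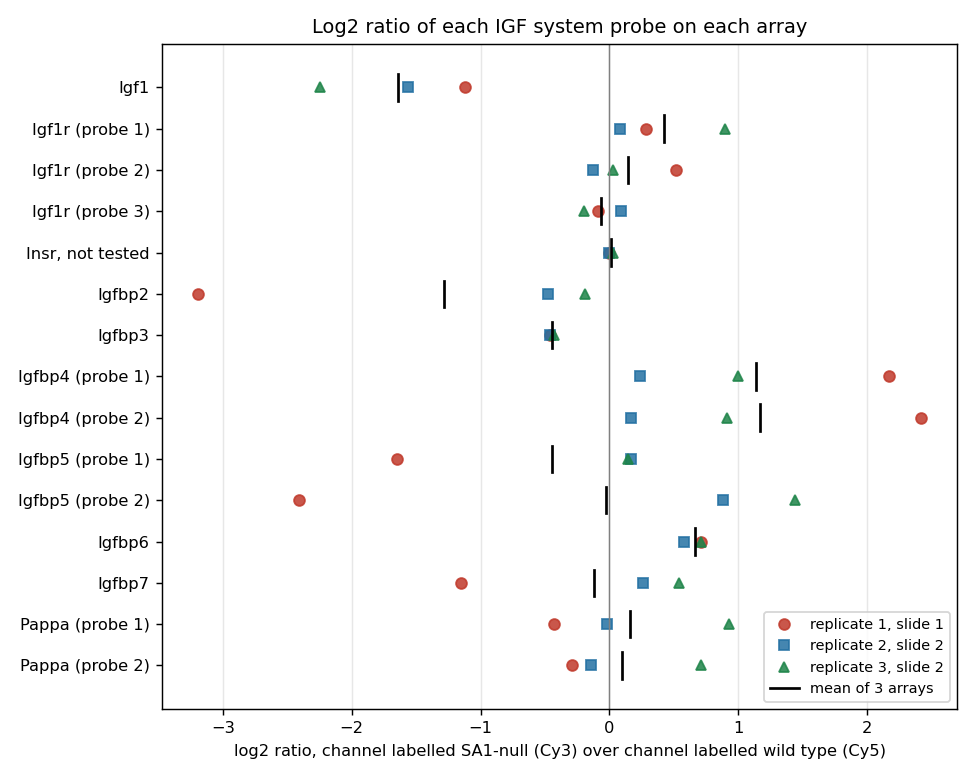
Log2 ratio of SA1-null (Cy3) over wild type (Cy5) for each of the 15 probes, with 1 symbol per array and a bar at the mean of the 3 arrays. Igf1 lay below 0 and Igfbp4 and Igfbp6 above 0 on every array, while the values of Igfbp5 and Igfbp7 lay below 0 on replicate 1 and above 0 on replicates 2 and 3.

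The ligand gene Igf1 was lower in SA1-null on all 3 arrays. Its probe is printed in 10 spots on each array. The mean spot signal, before any correction, was 2405, 282 and 273 in SA1-null and 17368, 1735 and 1442 in wild type on replicates 1, 2 and 3. These raw signals are not balanced between the dyes. After normalisation the log2 ratios were -1.12, -1.56 and -2.25, a mean of -1.64 ± 0.57 (SD, n = 3) or 3.12-fold. Within an array the spots scattered with an SD of 0.02 on replicate 1 and 0.06 on each of replicates 2 and 3. The SD between arrays was 9.46 times the largest of these. Spot scatter leaves out the error of labelling, hybridisation and normalisation, so that error and the spread between cultures cannot be told apart. The difference from 0 did not pass over all genes (limma adjusted p = 0.174). By unadjusted p it ranked 174th of the 18488. Without replicate 1 it passed (-1.90, limma adjusted p = 0.0116), on the spread of only 2 arrays. In that setting 1.54% of all genes passed, against 0.314% with all 3 arrays. The authors' deposited table, which runs as wild type over SA1-null, gives 1.11, 1.46 and 2.19 for this probe.

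Macrophage markers moved in the same direction as Igf1. Of 21 listed markers, 19 were measured, and 19 of them lay below 0 on all 3 arrays, where 19.1% of all genes did. Their median log2 ratios were -3.31, -2.52 and -2.84 on replicates 1, 2 and 3. The processed signals of these markers summed to between 9140 and 63900 in SA1-null samples, against 85000 to 716000 in wild type samples. Of the 19, 0 were at background throughout. The share of macrophages in the value of Igf1 was not tested. Fewer cells of a type and less RNA per cell cannot be told apart in such samples. Igf1 was nearest to 0 on replicate 1, where the marker median was farthest from 0. Single markers differed in this. Most were farthest from 0 on replicate 1, such as Csf1r at -3.75, -2.47 and -2.44 on replicates 1, 2 and 3. Only Adgre1 (-2.33, -3.06 and -4.19), Tyrobp and Lyz2 ranked the arrays as Igf1 did.

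**Figure D2:**
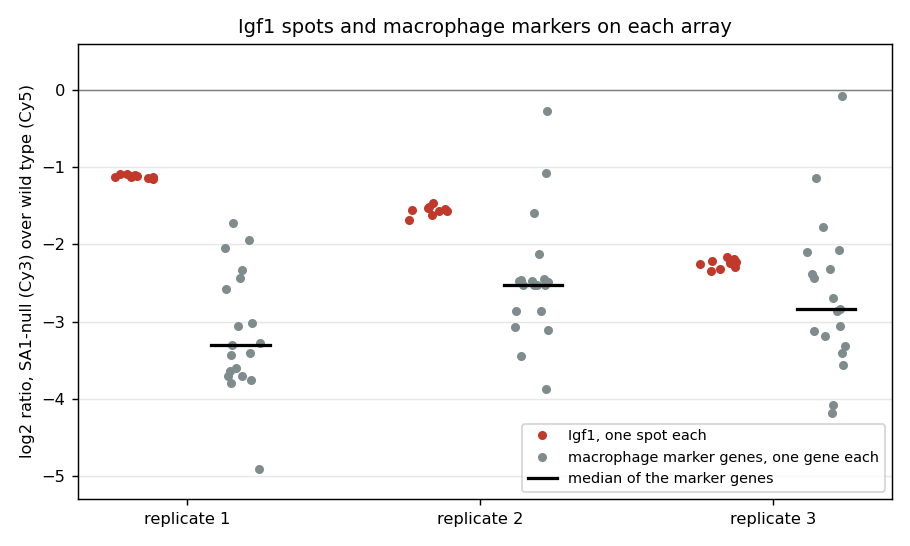
Log2 ratio of SA1-null over wild type for each Igf1 spot without an outlier flag (red) and for 19 macrophage marker genes (grey, with a bar at their median) on each array. Igf1 spots lay within 0.21 log2 units or less of each other on an array, and every point was below 0.

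The receptor genes gave no difference between the channels that passed. The brightest of 3 probes for Igf1r, the receptor that binds IGF-I, lay at 0.52, -0.13 and 0.03 on replicates 1, 2 and 3 (mean 0.14 ± 0.34, SD, n = 3, limma adjusted p = 0.864). The other probes averaged 0.42 ± 0.43 and -0.07 ± 0.15 (SD, n = 3). The probes thus did not share a sign, and with median centring in place of loess the brightest turned to -0.23, which was 0.07 above all genes there. Insr, the insulin receptor gene, had a raw signal of 39, 35 and 41 in SA1-null over backgrounds of 25, 32.5 and 25. In wild type it read 106, 61.5 and 61.5 over backgrounds of 60, 54 and 45. It was well above background in SA1-null on 2 of 3 arrays and in wild type on 1 of 3. A difference in Insr was not detectable at this signal.

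Igfbp2 and Igfbp5, genes of binding proteins that also attach to matrix or cell surfaces, differed between the arrays most of all members. They are direct neighbours on mouse chromosome 1. Igfbp2 read 10922, 434 and 986 in SA1-null on replicates 1, 2 and 3, and 356204, 1212 and 1186 in wild type. Its log2 ratios were -3.19, -0.48 and -0.19 (mean -1.28 ± 1.65, SD, n = 3, limma adjusted p = 0.703). Igfbp2 was therefore lower in SA1-null on all 3 arrays, strongly on replicate 1 and little on the others. The brighter probe of Igfbp5 read 6306, 501.5 and 911.5 in SA1-null and 116373, 526 and 332.5 in wild type. Its log2 ratios were -2.41, 0.88 and 1.44, so that replicate 1 pointed the other way from replicates 2 and 3. The mean of -0.03 ± 2.08 (SD, n = 3) describes none of the arrays, and its SD exceeded that of 99.5% of genes. The dimmer Igfbp5 probe gave -1.65, 0.17 and 0.14, with wild type not well above background on replicate 2.

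The gap between replicate 1 and the others was picked out after the values had been seen, and slide 1 held 1 array, so it is described here with no test. Slide 1 minus slide 2 was -3.57 for Igfbp5 and -2.85 for Igfbp2. Igfbp4 came next with 1.88 and Igfbp7 with -1.55. The gap exceeded 1 log2 unit in these 4 of the 9 members and in 13.5% of the 18488 genes. Counting themselves, 73 genes lay at or below the value of Igfbp5 and 156 at or below that of Igfbp2. Slide, version of the scanner software and cultures all changed together between replicate 1 and the others and cannot be told apart.

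**Figure D3:**
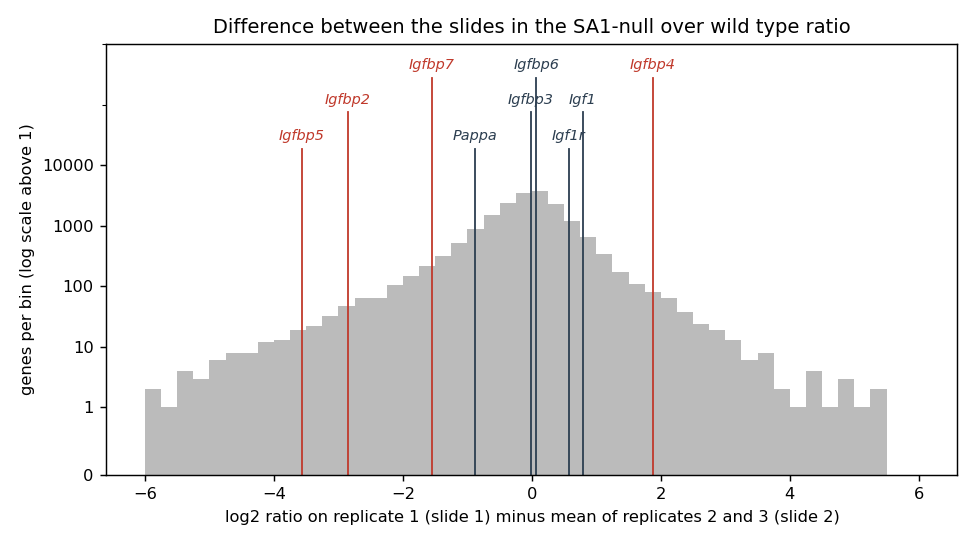
Number of genes by the log2 ratio on replicate 1 minus the mean of replicates 2 and 3, in bins on an axis that is logarithmic above 1, with values beyond 6 put into the outermost bins. Lines mark 9 members, in red where the gap exceeded 1 log2 unit either way, as in Igfbp5 (-3.57) and Igfbp2 (-2.85); slide 1 held 1 array and the gap was not tested.

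Replicate 1 also stood apart in the level of these genes in both of its channels. After loess and equalisation of average intensities across arrays, Igfbp2 had log2 levels of 14.22, 9.76 and 10.21 in SA1-null and 17.40, 10.23 and 10.40 in wild type. Replicate 1 was thus 18.8-fold above the mean of the others in SA1-null and 136-fold in wild type. Igfbp5 lay at 13.25, 9.96 and 10.1 in SA1-null and at 15.66, 9.08 and 8.65 in wild type. That is 9.35-fold and 111-fold higher on replicate 1. Igfbp3 encodes the main IGF carrier of blood, and its levels were 12.68, 7.79 and 7.91 in SA1-null and 13.15, 8.25 and 8.34 in wild type. Its excess on replicate 1 was 28.5-fold in SA1-null and 28.9-fold in wild type, nearly the same in both. Over all probes kept, an excess of more than 3 log2 units on replicate 1 was seen in 0.729% in SA1-null and 1.41% in wild type. Igf1 was 7.15-fold higher on replicate 1 in SA1-null and 4.14-fold in wild type. These folds compare single cultures, with no test.

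**Figure D4:**
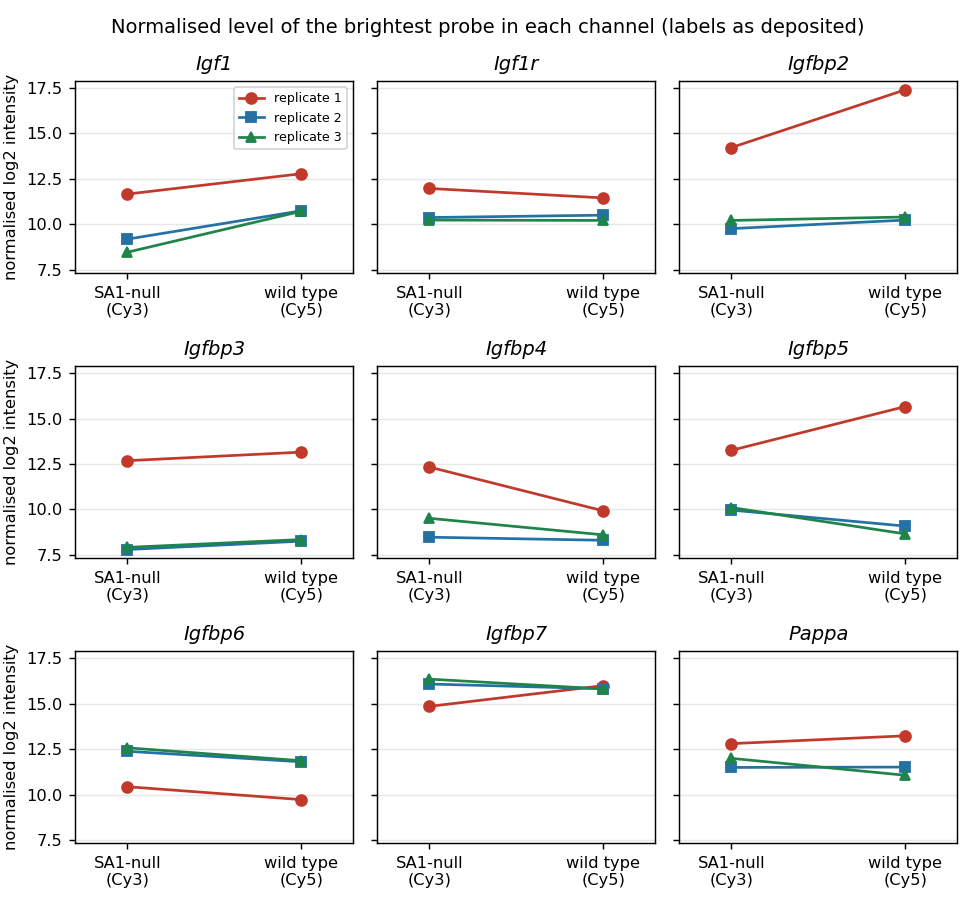
Normalised log2 intensity of the brightest probe of each tested member in SA1-null (Cy3, left) and wild type (Cy5, right), with a line joining the channels of 1 array. Replicate 1 lay above the others for Igf1, Igf1r, Igfbp2, Igfbp3, Igfbp4, Igfbp5 and Pappa in both channels, and below them for Igfbp6.

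Cartilage, neural and fibroblast markers differed between the arrays as well. The 7 cartilage markers had median log2 ratios of 2.89, 0.07 and 0.03 on replicates 1, 2 and 3. Sox9 among them ran the other way, at 0.27, 0.76 and 0.89. The processed signals of the 7 summed to 3830 to 109000 in SA1-null and 3180 to 22200 in wild type. Of these, 4 were well above background on all arrays in SA1-null and 5 in wild type, and 0 were at background throughout. The 7 neural markers measured had medians of -1.58, 0.01 and 0.20, with sums of 2900 to 32800 in SA1-null and 11500 to 47200 in wild type. Among these Dcx was at background throughout. The 14 fibroblast markers had medians of 1.09, 0.08 and 0.71. Their sums were 765000 to 1370000 in SA1-null and 631000 to 701000 in wild type, and 0 were at background throughout. The medians of the endothelial, skeletal muscle, adipocyte and erythroid lists lay between -0.06 and 0.27 on all arrays, and those of the epithelial list were 0.11, -0.21 and -0.23. Of 4 erythroid markers measured, 0 were well above background on all arrays in either channel. In each channel this held for 4 of 10 endothelial and 4 of 7 adipocyte markers. Dim probes thus limit what these medians show. The part of any of these cell types in the values of Igfbp2, Igfbp4 and Igfbp5 was not tested.

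The windows upstream of Igfbp2, Igfbp5 and Igfbp4 are shown because the first pair stood out together on replicate 1 and Igfbp4 stood out there with the opposite sign. They cover the 250 bases before the RefSeq start site of each gene (build GRCm38.p6, read 5′ to 3′ on the gene's strand), at chr1:72824230-72824479 on the plus strand for Igfbp2, the first of its windows, chr1:72874866-72875115 on the minus strand for Igfbp5 and chr11:99040994-99041243 on the plus strand for Igfbp4. Capitals mark the matches on either strand to short motifs, none of which overlapped another here. The TATA box was searched as TATAAA. The GC box, a site of Sp1-like factors, was searched as GGGCGG. The E-box, a site of helix-loop-helix factors, was searched as CACGTG.
Igfbp2: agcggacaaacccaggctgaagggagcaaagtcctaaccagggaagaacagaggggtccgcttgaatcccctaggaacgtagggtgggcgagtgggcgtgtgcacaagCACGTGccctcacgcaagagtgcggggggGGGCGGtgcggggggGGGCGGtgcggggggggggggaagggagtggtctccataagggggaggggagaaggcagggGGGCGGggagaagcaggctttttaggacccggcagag
Igfbp5: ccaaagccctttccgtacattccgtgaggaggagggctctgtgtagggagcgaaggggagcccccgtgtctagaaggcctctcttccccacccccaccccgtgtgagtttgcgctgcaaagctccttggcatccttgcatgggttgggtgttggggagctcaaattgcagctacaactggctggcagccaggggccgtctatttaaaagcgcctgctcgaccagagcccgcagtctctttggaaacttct
Igfbp4: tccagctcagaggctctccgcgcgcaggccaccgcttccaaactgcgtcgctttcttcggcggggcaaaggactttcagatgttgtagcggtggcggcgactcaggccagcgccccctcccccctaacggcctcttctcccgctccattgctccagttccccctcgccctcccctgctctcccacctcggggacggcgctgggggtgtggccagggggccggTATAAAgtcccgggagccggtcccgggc

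The Igfbp2 window held 3 GC boxes and 1 E-box, the Igfbp4 window 1 TATA box that starts 28 bases before the start site, and the Igfbp5 window none of these letters. Of 32851 such windows in RefSeq, 12.4% held TATAAA, 32.7% GGGCGG and 6.02% CACGTG. The neighbours Igfbp2 and Igfbp5 therefore shared none of these motifs in this stretch. The GC content was 67.2% for Igfbp2, 58.8% for Igfbp5 and 69.2% for Igfbp4, against a median of 52.4% over all windows. The second Igfbp2 window, at chr1:72825137-72825386, held none of these motifs and had a GC content of 56.4%. Windows were found for 8 of the 10 members.

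Igfbp4, the gene of an inhibitory binding protein that is the best known substrate of PAPP-A, was higher in SA1-null on all 3 arrays. The brighter probe read 4114, 171.5 and 598 in SA1-null and 2475, 289 and 319.5 in wild type on replicates 1, 2 and 3. Its log2 ratios were 2.42, 0.17 and 0.91 (mean 1.17 ± 1.15, SD, n = 3, 2.24-fold, limma adjusted p = 0.666). The second probe gave 2.17, 0.24 and 1.00, so both probes ranked the arrays alike. Most of the mean came from replicate 1, and without it the mean was 0.54. Its normalised log2 level on replicate 1 was 10.2-fold above the others in SA1-null and 2.76-fold in wild type.

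Igfbp3 and Igfbp6 had the smallest SD between arrays among the members tested. Igfbp3 read 4678, 98.5 and 172 in SA1-null and 21698, 290 and 263.5 in wild type. Its log2 ratios were -0.46, -0.46 and -0.43 (mean -0.45 ± 0.02, SD, n = 3, 1.37-fold, limma adjusted p = 0.588), and 0.368% of genes had an SD as small or smaller. This small spread depends on the processing, since the scanner software's processed signals give -0.43, -0.69 and -0.50. The probe was dim on replicate 2, at 98.5 over a background of 28.5 in SA1-null, where an offset of 50 draws a ratio towards 0. Igfbp6, whose product prefers IGF-II as ligand, read 1185, 3107 and 4910 in SA1-null and 2304, 4155 and 3588 in wild type. Its log2 ratios were 0.71, 0.58 and 0.71 (mean 0.67 ± 0.07, SD, n = 3, 1.59-fold, limma adjusted p = 0.343). Its level was lower on replicate 1 than on the others, 4.13-fold in SA1-null and 4.32-fold in wild type, which held for no other member at its brightest probe in both channels. With the processed signals Igfbp6 gave 0.87, 0.63 and 0.66. Neither gene passed, and limma draws each gene's spread towards that of all genes.

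In all, 5 of 9 members had 1 sign on all arrays, against 32.4% of all genes. Igf1, Igfbp2 and Igfbp3 were below 0 (19.1% of all genes were), and Igfbp4 and Igfbp6 above 0 (13.3% of all genes were). These 5 kept their sign in all 19 alternative analyses, many of which could not turn it. Leaving out 1 replicate or adding a slide term cannot turn a sign shared by all arrays. Changes of variance model, pairing, filter or threshold gave the same ratios. When the channels are set side by side without regard to the array, 0 of the 9 members had levels in SA1-null that did not overlap those in wild type. Of all genes 6% lay wholly below and 2.87% wholly above.

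Igfbp7 encodes a binding protein of low affinity for IGFs that is stored in matrix. Among the members' raw signals its probe was the brightest in each channel of each array, except that Igfbp2 was brighter on replicate 1 in wild type. It read 17474, 45772 and 61467 in SA1-null and 137418, 86047 and 73119 in wild type, and no spot was flagged as saturated. Its log2 ratios were -1.15, 0.26 and 0.54 (mean -0.12 ± 0.91, SD, n = 3, limma adjusted p = 0.951), with the same turn of sign between replicate 1 and the others as Igfbp5. The level in wild type was nearly the same on all arrays, at log2 values of 15.99, 15.82 and 15.81. In SA1-null it was 14.85 on replicate 1, against 16.08 and 16.35. The arrays thus differed in Igfbp7 mostly in SA1-null, whereas for Igfbp2 and Igfbp5 replicate 1 was high in both channels and highest in wild type.

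Pappa, the gene of the protease, had log2 ratios of -0.43, -0.02 and 0.93 at its brighter probe (mean 0.16 ± 0.70, SD, n = 3, limma adjusted p = 0.900). The raw signals were 5087, 1605 and 3385 in SA1-null and 23029, 3257 and 1987 in wild type. The dimmer probe gave -0.29, -0.14 and 0.71 and ranked the arrays in the same order. Pappa was thus above 0 on replicate 3 alone. With median centring its mean turned to -0.27, which was 0.03 above all genes there.

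Around the members, 65 further genes of the pathway were listed by role and 55 were measured. Of these, 0 rose and 0 fell at an adjusted p of 0.05 in limma, against 0.314% of all genes. At an unadjusted p under 0.05 there were 10 of the 55, against 7.49% of all genes. The median log2 ratio of the 55 was 0.08, with 33 above 0, beside a median of -0.02 for all genes. Among the other ligands, receptors and carriers, 0 of 6 passed and 4 lay above 0. Igf2, the ligand gene closest to Igf1, had log2 ratios of 2.37, 0.80 and 0.90 (mean 1.35 ± 0.88, SD, n = 3, limma adjusted p = 0.473), opposite in sign to Igf1 on each array. Its second probe averaged 1.73. Igf2r, whose product clears IGF-II, averaged 0.26 ± 0.29, Ghr, the growth hormone receptor gene, 0.10 ± 0.28 and the insulin gene Ins2 -0.08 ± 0.37 (SD, n = 3).

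Among proteases of binding proteins and their inhibitors, 0 of 9 passed and 2 lay above 0. The gelatinase gene Mmp9 averaged -0.77 ± 0.57 and Stc2, whose product inhibits PAPP-A, -0.41 ± 0.27, both below 0 on all arrays. Adam12 averaged 0.71 ± 0.75, with a second probe at 0.14, and Mmp2 0.48 ± 0.62 (SD, n = 3). Of 20 adaptors and kinases below the receptors 0 passed and 15 lay above 0. The adaptor genes Shc1 and Grb2 averaged 0.79 ± 0.49 and -0.37 ± 0.36, and the PI3-kinase genes Pik3cb and Pik3r2 -1.18 ± 0.91 and 0.45 ± 0.23 (SD, n = 3). The kinase list was thus mixed in sign among the genes with its smallest p.

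Of 13 inhibitors of receptor signalling 0 passed. Inpp5d encodes a lipid phosphatase known from blood cells and had log2 ratios of -3.96, -2.20 and -2.67 (mean -2.94 ± 0.91, SD, n = 3, limma adjusted p = 0.0928). It was the pathway gene farthest from 0 and lay near the macrophage marker medians given above. The share of macrophages in its value was not tested. Trib3, an AKT-binding stress protein gene, averaged 1.69 ± 1.22, with a second probe at 1.41. Grb10, a receptor-binding adaptor that restrains growth, averaged 1.03 ± 0.80, with other probes at 0.62 and 0.17, and the mTOR inhibitor gene Deptor 0.42 ± 0.23 (SD, n = 3). Among 7 transcription factors and RNA-binding proteins 0 passed and 6 lay above 0. Igf2bp3 and Igf2bp2, whose products bind Igf2 mRNA, averaged 0.75 ± 0.51 and 0.70 ± 0.54, and Hmga2 and Plagl1 0.73 ± 0.67 and 0.45 ± 0.32 (SD, n = 3).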

How the data were processed

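Per the file headers, each scanner file lists raw, background and processed intensity for both dyes, with a log10 ratio of Cy5 over Cy3. The headers name Feature Extraction 10.1.1.1 on slide 1 and 10.7.3.1 on slide 2. The deposited table of the series holds log2 values made with limma, per the submitters' processing notes; no source names its background correction or centring. Set against the ratios computed here it ran as Cy5 over Cy3 (correlations 0.991, 0.986 and 0.997, slopes 0.984, 1.03 and 0.999, medians -0.02, -0.02 and -0.01).

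Median spot signals were corrected with normexp (offset 50) and loess-normalised per array (limma 3.58.1, R 4.3.3). Controls and outlier-flagged spots (116, 125 and 207) were left out, and 0 spots were saturated. Spots of a probe were averaged. A probe was kept when at least 1 channel was well above background on all 3 arrays (24019 of 41174), and the brightest kept probe stood for each gene (18488). Ratios were tested against 0 with lmFit and eBayes and adjusted over all genes (Benjamini-Hochberg). Levels per channel came from Aquantile after loess. The channels of 1 array are paired by the ratio itself. With 3 arrays, the smallest two-sided p from turning signs is 0.25, and calls rest on a spread shared between genes by limma. The number of arrays limits precision. The p-values rest on the spread between these 3 arrays, in which culture, labelling, hybridisation, normalisation and slide cannot be told apart. They do not reach beyond these cultures.

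Names and upstream sequences came from RefSeq tables of GRCm38.p6, and no coordinates of the array design were used. All members are described. Of the pathway lists, genes past the threshold and otherwise up to 4 with the smallest p per role are named. Members and lists were chosen with earlier results of these data known. Figures were drawn with matplotlib 3.10.9. Alternatives changed the background correction, signal, normalisation, filter, flags, probe rule, variance model, pairing, slide, replicates and threshold.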

Additional observations from a re-analysis of the deposited data

How the results depend on the processing

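Igf1, Igfbp2, Igfbp3, Igfbp4 and Igfbp6 kept their sign in all 19 alternatives, many of which, as said above, could not turn it. They kept their side of the threshold except as follows. The count of members past the threshold (0) became 3 with the slide as a fixed term, where the spread comes from slide 2 alone and 9.58% of all genes passed: Igf1 (-1.51, limma adjusted p = 0.0049), Igfbp2 (-1.76, limma adjusted p = 0.00144) and Igfbp4 (1.48, limma adjusted p = 0.00596). Leaving out 1 replicate gave 0 to 1 members, with Igf1 passing without replicate 1, where 1.54% of all genes passed. The mean of Igfbp5 reversed to 0.0174 with no background subtraction, 0.0528 with an offset of 0, 0.17 with the processed signals and 0.22 with scaling between arrays, and ran from -0.76 to 1.16 with 1 replicate left out. Leaving out 1 replicate also turned Igf1r (-0.0532 to 0.271), Igfbp7 (-0.45 to 0.40) and Pappa (-0.22 to 0.46). Median centring moved the median of all genes to -0.30 and turned Igf1r (-0.23) and Pappa (-0.27). The members' median lay between -0.45 and 0.40.

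The count of all genes past the threshold (58) was 118 with no background subtraction, 265 with an offset of 0, 326 with the processed signals, 160 with scaling, 113 with an intensity trend, 92 with both channels above background, 34 with median centring, 132 at a threshold of 0.1, 1772 with the slide term, and 0 with no filter (1990 at an unadjusted p under 0.05, limma). It ran from 0 to 284 with 1 replicate left out, the 0 arising without replicate 2 (1294 unadjusted) and without replicate 3 (736 unadjusted, limma). With the channels as separate samples and no replicate block it was 0 (636 unadjusted, limma). The pathway count (0) was 1, Inpp5d, with no background subtraction, the offset at 0, processed signals, scaling, an intensity trend and a threshold of 0.1. It was also 1, again Inpp5d, without replicate 1 (0 to 1 over the replicates left out), and 9 with the slide term. Stag1 lost its call with scaling (3.67), no filter (3.52) and no replicate block (3.52), and with 1 replicate left out it lay between 3.40 and 3.61, losing the call without replicate 2 and without replicate 3. The causes of these changes were not tested. Dim signal limits Insr and the second Igfbp5 probe.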
